A study of Mus musculus with 4 samples.

Results

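Oxidative phosphorylation is carried out by 5 protein complexes of the inner mitochondrial membrane, and most of their subunits are encoded in the nucleus. The nuclear genes described here were the 75 of 19465 gene symbols in the counts table that begin with Ndufa, Ndufb, Ndufc, Ndufs or Ndufv (without the assembly factors named Ndufaf), Sdha to Sdhd, Uqcr, Cyc1, Cox4i, Cox5, Cox6, Cox7, Cox8 or Atp5. Members were given to complexes by the start of the symbol alone. Complex I had 35 of these members, complex II 4, complex III 8, complex IV 15 and complex V 13. A mean of at least 10 counts per 1000000 counts (CPM) over the 4 barcode sets was reached by 68 members, and counts of members called higher or lower are over these 68. The 7 members below it were Ndufa4l2, counted with complex I by its symbol only, and Cox4i2, Cox6b2, Cox7b2, Cox7c, Cox8b and Cox8c of complex IV. The table held 0 genes encoded in the mitochondrial genome.

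Complexes I to IV pass electrons from NADH and succinate to oxygen, and complexes I, III and IV pump protons across the membrane as they do so. Complex V, the ATP synthase, uses the resulting proton gradient to make ATP. In brain this pathway supplies most of the ATP that neurons spend on ion pumping and synaptic transmission, and fast-spiking parvalbumin neurons are known for a high mitochondrial content.

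The data were spatial gene counts from coronal brain sections that include the striatum, made with the Visium CytAssist assay on formalin-fixed, paraffin-embedded tissue. The sections came from 4 untreated mice, 2 wild type and 2 Celsr3 heterozygous. Celsr3 encodes an adhesion receptor of the cadherin family. The labels give no age, sex or strain. Each spot is a small area of tissue that can hold several cells, and its name ends in a suffix that splits the spots into 4 barcode sets. No suffix matches a sample's labels, so no set was tied to a mouse or a genotype, the genotypes were not compared, and no value below has a p-value or a standard deviation over sets.

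Sets 1 to 4 held 3055, 2808, 3445 and 3294 spots with 174761560, 109663162, 165185177 and 90752475 counts. The median counts per spot ranged from 26444.5 in set 4 to 52481 in set 1. Of 4744 different barcodes, 1613 occurred in all 4 sets. Spots were clustered without the members, which gave 25 areas, of which 13 were named from marker genes and 12 are called by cluster number and leading genes. Values of an area were taken only from sets with at least 30 of its spots. These were sets 1 and 4 for the thalamic area and cluster 28, sets 1 and 3 for choroid plexus, sets 2 and 3 for the upper cortical area, and sets 1, 3 and 4 for cluster 7. Left out in this way were 3 choroid plexus spots in set 2 and 27 in set 4, 5 thalamic spots, 10 upper cortical spots and 11 of cluster 7. Intervals below are exact 95% intervals that cover counting error only. A member was called higher or lower in an area where its CPM was at least 5/4 or at most 4/5 of that of the other spots in each of those sets. The fold is a size rule, not a test. In these spots, fewer cells of a type and less RNA per cell cannot be told apart.

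Over whole sections the members took a similar share of all counts in each set. For sets 1 to 4 the shares were 2.04, 2.10, 2.09 and 2.17%, and their counting intervals did not overlap. Set 4 was highest and set 1 lowest by this measure. Under TMM scaling, which sets the libraries level on the bulk of genes, the order differed, with set 4 lowest at 1.97% and set 3 highest at 2.23%. Complex I gave 36.8 to 37.8% of the members' counts over the 4 sets, complex V 26.9 to 29.1%, complex IV 16.4 to 19.3%, complex III 12.1 to 12.8% and complex II 4.54 to 5.53%.

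In each complex 1 member had the highest mean CPM over the sets. These are levels of counts per gene without a correction for length or for the number of probes, so they do not rank the amounts of the proteins or transcripts. Ndufb10, an accessory subunit of complex I, had 504, 518, 567 and 442 CPM in sets 1 to 4. Sdhb, the iron-sulfur subunit of complex II, had 411, 343, 413 and 314 CPM. Uqcr10, a small subunit of complex III, had 454, 385, 468 and 392 CPM. All 3 were highest in set 3 and lowest in set 2 or set 4. Cox8a, a small subunit of complex IV, had 803, 1252, 901 and 1288 CPM. Atp5a1, the alpha subunit of the catalytic part of complex V, had 986, 1171, 1001 and 1176 CPM. Both were higher in sets 2 and 4 than in sets 1 and 3.

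By area, the share of counts from the members ranged from 1.51% to 2.82% among areas and sets. It was highest in cluster 28, led by Pvalb, Six3 and Lancl3, at 2.67 and 2.82% in sets 1 and 4. Next came cluster 7, led by Ngfr, Lhx8 and Spp1, at 2.52, 2.44 and 2.61% in sets 1, 3 and 4. The basal forebrain cholinergic area followed at 2.24, 2.67, 2.33 and 2.39% in sets 1 to 4. In all of these sets the value was above the whole section of the same set. The lowest shares were in the white matter area, at 1.51, 1.75, 1.70 and 1.79%, and in the ventricle lining area, at 1.73, 1.73, 1.85 and 1.87%, each below its own section. The white matter and ventricle lining ranges overlapped, while that of cluster 28 lay above that of cluster 7. The lowest value of cluster 28, 2.6695%, was only just above that of the cholinergic area in set 2, 2.6659%.

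**Figure D1:**
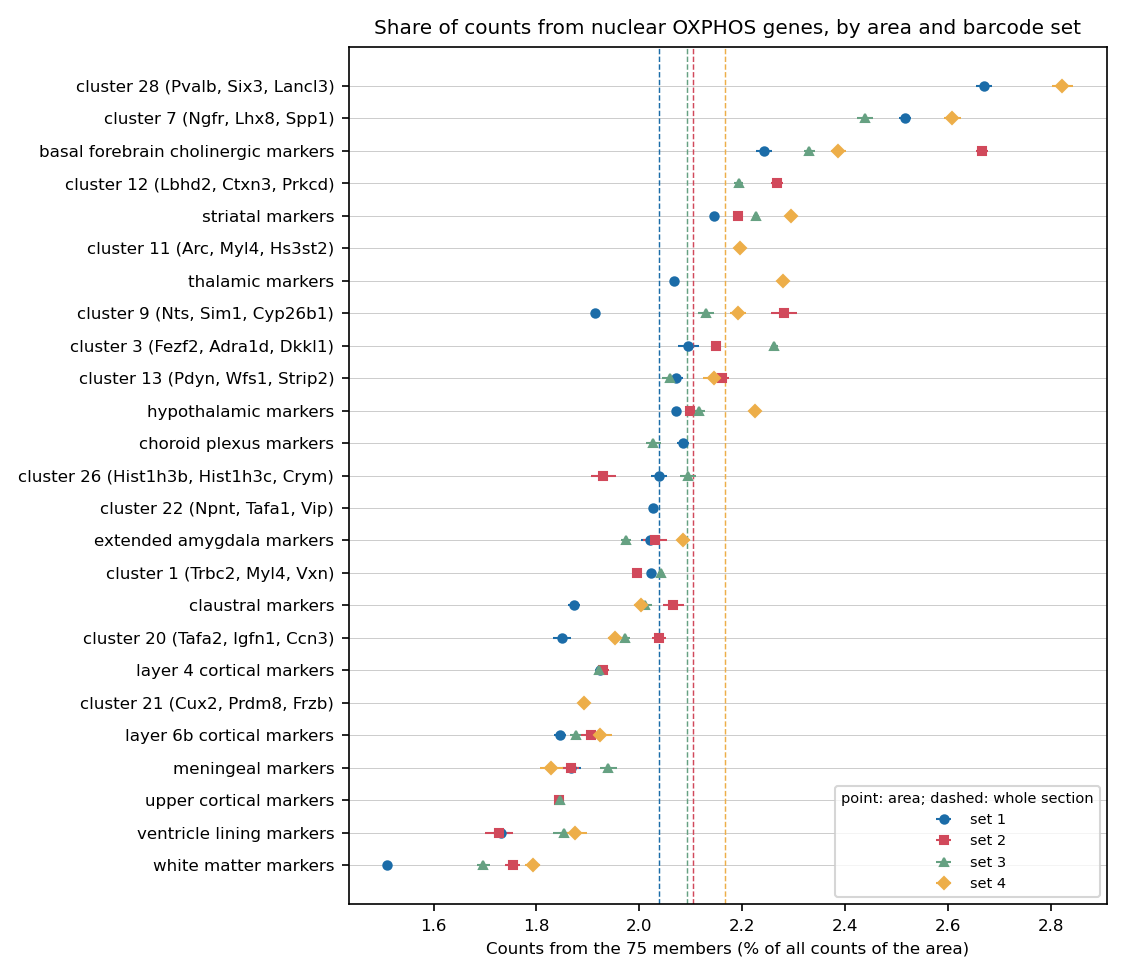
Share of all counts that came from the 75 members (horizontal axis, percent) in each of 25 areas (vertical axis, ordered by the median over sets). Points are barcode sets 1 to 4 with exact 95% counting intervals, and dashed lines mark the whole section of each set; cluster 28 lies at 2.67 and 2.82% and the white matter area at 1.51 to 1.79%.

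Cluster 28 held 160 spots, 62 in set 1 and 98 in set 4. Of the 68 members, 38 were called higher there and 0 lower, against 12.1% of 10143 genes higher and 18.2% lower. The median log2 ratio of the members to the other spots was 0.39, and that of all genes -0.03. The members' median was 0.45 under TMM and 0.44 under RLE scaling. When spots were clustered without centring, no cluster matched cluster 28 (highest Jaccard overlap of spots 0.369), so that setting gave no value. Every complex took part: 19 of 34 members of complex I, 1 of 4 of complex II, 5 of 8 of complex III, 5 of 9 of complex IV and 8 of 13 of complex V were higher. With each of the sets left out, 42 to 48 members were higher. A call needs the fold in every set, so this count could not fall, and each value rests on a single set. A rule of 1.5-fold left 6.

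The members with the highest ratios in cluster 28 belonged to complexes IV and V. Cox6a2, the heart and muscle form of a complex IV subunit, had 35.3 and 78.3 CPM in sets 1 and 4 against 20.1 and 31.7 in other spots. Its ratios were 1.76 (1.49 to 2.06) and 2.47 (2.14 to 2.83). Atp5b, the beta subunit that holds the catalytic site of complex V, had 1508 and 1015 CPM against 879 and 594. Its ratios were nearly equal in the sets, at 1.72 (1.67 to 1.76) and 1.71 (1.65 to 1.77). Atp5g1, 1 of the genes for the c subunit of the proton-driven ring, had ratios of 1.60 and 1.88. Cox7b, a small subunit of complex IV, had 316 and 373 CPM in cluster 28 and ratios of 1.60 and 1.82.

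Complex I and complex III members of different roles were also higher in cluster 28. Ndufb8, an accessory subunit in the membrane arm of complex I, had ratios of 1.66 and 1.64 in sets 1 and 4. Ndufb10 of the same arm had 1.51 and 1.54, and Ndufab1, the mitochondrial acyl carrier protein, 1.59 and 1.41. The core subunits Ndufs1, Ndufs8, Ndufv1 and Ndufv2, which carry electrons through the peripheral arm, passed the fold in both sets. In complex III, Cyc1, which encodes cytochrome c1, had ratios of 1.43 and 1.38, and the core protein Uqcrc1 1.39 and 1.34. In complex II only Sdha, the flavoprotein subunit, passed, at 1.39 and 1.31. At the other end were Ndufa7, at 1.01 and 0.844, Ndufb3, at 0.825 and 1.07, and Cox8a, at 0.879 and 1.01, none of which passed the fold.

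The other mitochondrial lists and the marker lists were read beside these values. Of 17 genes of pyruvate dehydrogenase and the TCA cycle, 10 were higher in cluster 28 and 0 lower, led by Idh3b, a subunit of isocitrate dehydrogenase, at 1.63 and 1.49-fold. Of 43 assembly factors with at least 10 CPM, 9 were higher and 3 lower, and of 11 glycolysis genes 3 were higher and 1 lower. Among 13 regulators of mitochondrial genes, 3 were higher and 1 lower. The highest were Esrrg, an oestrogen-related receptor that is also among the leading genes of the cluster, at 12.2 and 12.8-fold, and the coactivator Ppargc1a, at 2.99-fold in both sets, with Esrra at 1.74 and 1.89-fold. The parvalbumin interneuron list, whose gene Pvalb leads the cluster, had 7 of 8 genes higher and 1 lower. Of the oligodendrocyte list 11 of 12 were higher and 0 lower, and of 13 neuron genes 2 were higher and 2 lower. The summed oligodendrocyte markers stood at 24670 and 30885 CPM in sets 1 and 4, against 19045 and 13788 in the whole sections. Their part in the members' result was not tested.

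Cluster 7 held 484 spots in sets 1, 3 and 4. There 11 of 68 members were higher in all 3 sets and 0 lower, against 14.0% of genes higher and 16.9% lower, so the count of members higher was near the background. The members' median log2 ratio was nevertheless 0.25 against -0.04 for all genes, with 52 members above 1 in every set. Cox7a1, the heart and muscle form of another complex IV subunit, had 17.2, 16.0 and 19.4 CPM in sets 1, 3 and 4 and ratios of 1.49, 1.49 and 1.52. Ndufb8 had ratios of 1.47, 1.48 and 1.39, and Ndufab1 1.42, 1.14 and 1.41, so Ndufab1 did not pass in set 3. With set 3 left out 23 members were higher. All 12 oligodendrocyte genes, 9 of 10 astrocyte genes and 9 of 9 microglia genes were higher in cluster 7 as well. So were 6 of 7 endothelial and 6 of 6 mural genes. Of 8 genes of the parvalbumin interneuron list 6 were higher and 2 lower, and of 13 neuron genes 1 was higher and 3 lower. Of 13 regulators of mitochondrial genes 3 were higher and 1 lower, and of 17 TCA cycle genes 5 were higher and 0 lower. The part of these lists in the members' result was not tested.

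In the basal forebrain cholinergic area, 620 spots over 4 sets, 3 members were higher and 1 lower, against 8.34% of genes higher and 10.6% lower. The members' median log2 ratio was 0.20, with 54 of 68 above 1 in every set, against 0.04 for all genes. Ndufa11, an accessory subunit of complex I, had 82.3, 115, 70.9 and 132 CPM in sets 1 to 4 against 56.5, 79.3, 48.8 and 99.6 in other spots, with ratios of 1.32 to 1.46. Cox7a1 had ratios of 1.42, 2.30, 1.68 and 1.46. Cox6a2 went the other way, with 14.0, 13.3, 15.5 and 15.4 CPM and ratios of 0.681, 0.788, 0.720 and 0.454. Set 2 stood apart in the share of counts, and without set 4 the count of members higher was 8.

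**Figure D2:**
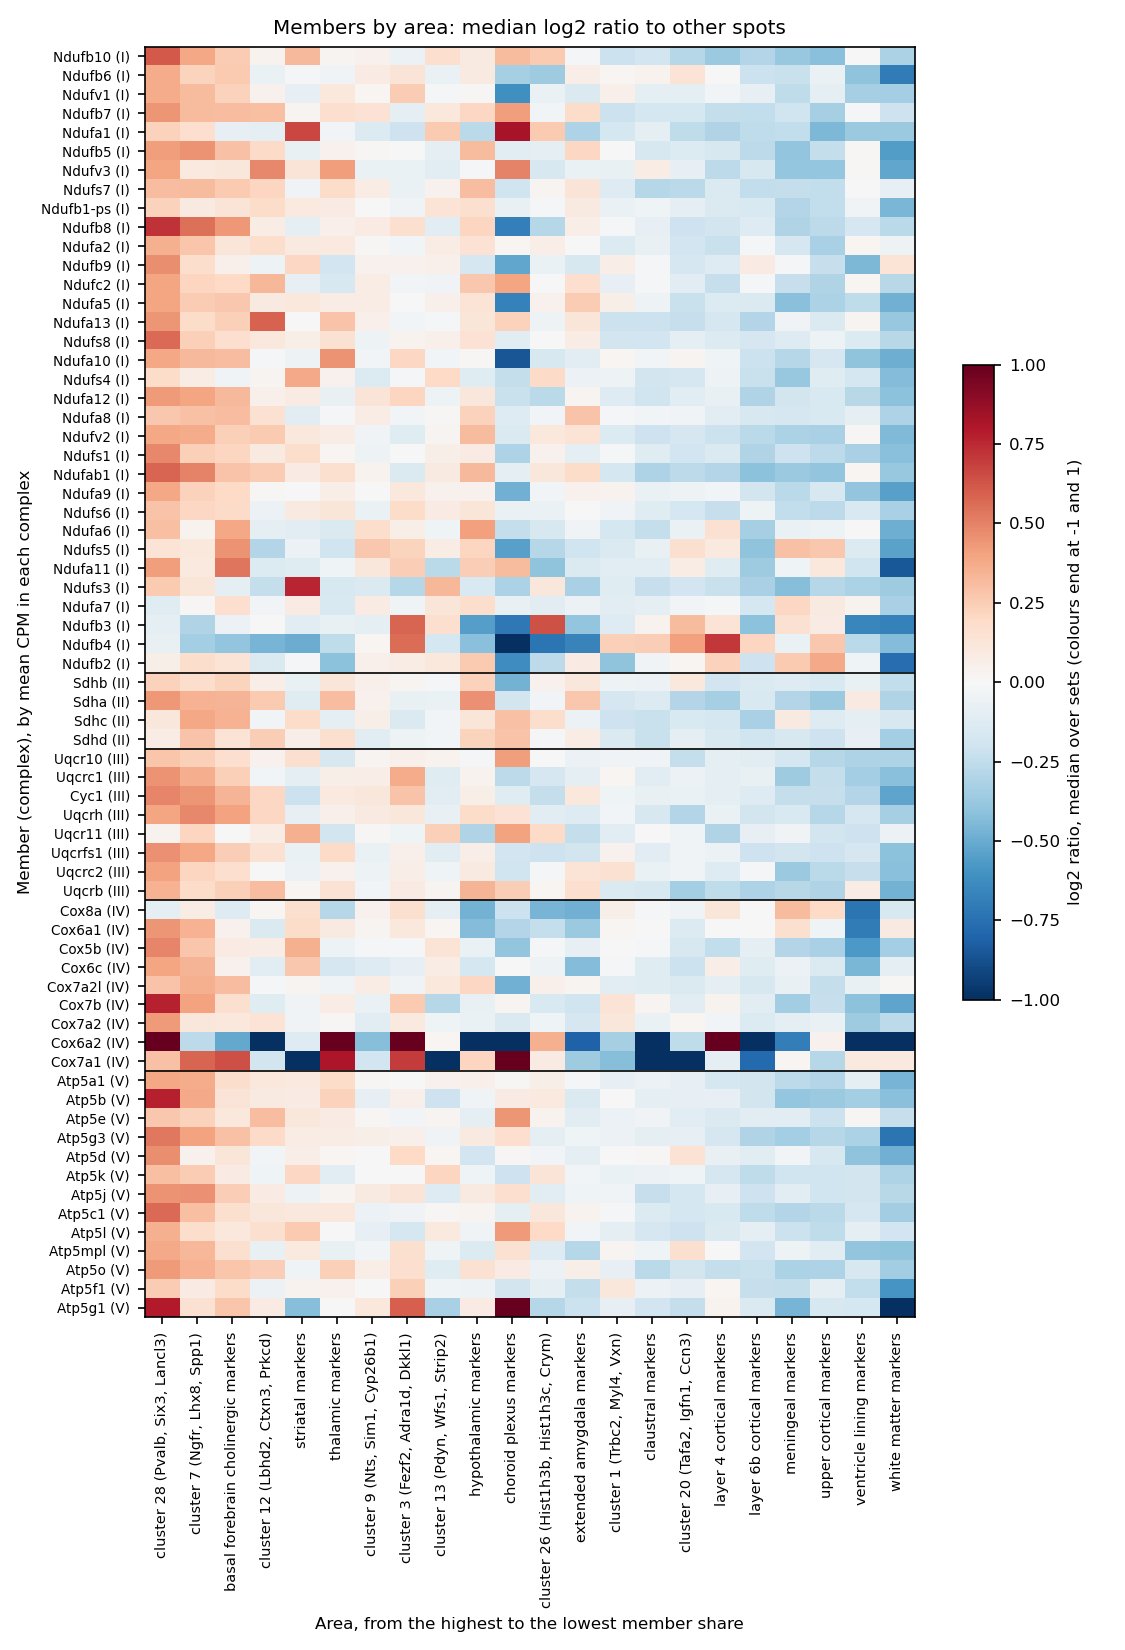
Median over sets of the log2 ratio of each member in an area to the other spots (colour, ending at -1 and 1) for 67 of the members with at least 10 CPM (rows, by complex) in areas held by at least 2 sets (columns, from the highest to the lowest share). Cluster 28 is red in nearly every row and the white matter area blue in most, while Cox6a2 and Cox7a1 change colour from area to area.

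In the white matter area 25 of 68 members were lower in every set and 0 higher, against 26.7% of genes lower and 15.2% higher. The median log2 ratio was -0.36 for the members and -0.14 for all genes, and 59 of 68 members lay below 1 in every set. It was -0.45 under TMM and -0.27 under RLE scaling. Lower calls came from complexes I (14), V (7), III (2) and IV (2), and 0 came from complex II.

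The members for the complex V c subunit, Atp5g1 and Atp5g3, were lower in white matter. Atp5g1 had 11.1, 18.4, 15.8 and 26.7 CPM against 30.5, 38.8, 37.2 and 46.2 in other spots, with ratios of 0.363, 0.474, 0.424 and 0.577. Atp5g3 had ratios of 0.567, 0.690, 0.574 and 0.636. Ndufa11 had 28.3, 49.1, 28.8 and 55.6 CPM, with ratios between 0.484 and 0.594, and Cox6a2 had ratios between 0.352 and 0.555. In each of these members all 4 white matter values lay below the other spots of the same set. The highest ratios were near 1: Ndufb9 had 0.946, 1.10, 1.15 and 1.10, and Cox6a1, the widely expressed partner of Cox6a2, had 1.00, 1.11, 1.11 and 1.03. Cox7a1 had no common direction, with ratios from 0.573 to 1.51.

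Of 17 TCA cycle genes 11 were lower in white matter and of 11 glycolysis genes 9, each with 0 higher. Of 43 assembly factors 12 were lower, a share near the 26.7% of all genes. All 13 neuron genes were lower and all 12 oligodendrocyte genes higher. The summed neuron markers were 3339 to 4738 CPM in the area and 12271 to 12881 CPM in the whole sections. The part of this in the members' values was not tested.

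In the ventricle lining area 6 members were lower and 0 higher, against 13.2% of genes lower and 15.6% higher, so the count was below the background. Under TMM scaling, which moved all ratios of the area by -0.32 on the log2 scale, 39 were lower, and under RLE 12. Of the 6, 5 belonged to complex IV. Cox8a had 486, 762, 530 and 878 CPM against 808, 1256, 905 and 1295 in other spots, with ratios of 0.602, 0.606, 0.586 and 0.678. Cox6a1 had ratios of 0.656, 0.541, 0.579 and 0.727, and Cox6a2, on 23, 6, 12 and 21 counts, 0.466, 0.383, 0.316 and 0.435. Complex IV gave 13.1 to 16.3% of the members' counts here, compared with 18.9 to 21.7% in white matter. These 2 areas with the lowest total share thus differed in complex IV, without overlap between their sets. In the ventricle lining 9 of 13 neuron and 11 of 12 oligodendrocyte genes were lower and 7 of 10 astrocyte genes higher, and their part was not tested.

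In the upper cortical area 6 members were lower and 1 higher, against 16.7% of genes lower and 9.6% higher. The 6 included Ndufa1, at 0.731 and 0.735 in sets 2 and 3, and Ndufb10, at 0.723 and 0.772. Under TMM scaling 0 were lower and under RLE 1, so these calls rest on scaling by the total count. Ndufb2, a small accessory subunit, was the member called higher, at 13.7 and 9.82 CPM and 1.31 and 1.29-fold.

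The striatal area, 2252 spots, had a median log2 ratio of the members of 0.05 against -0.09 for all genes, 0.23 under TMM and 0.16 under RLE. It had 3 members higher and 2 lower against 10.5% of genes higher and 22.1% lower. The 3 were all complex I subunits, with closely similar ratios in the sets. Ndufs3, a core subunit, had 83.0, 121, 88.9 and 127 CPM against 47.3, 70.6, 53.8 and 75.6 in other spots. Its ratios were 1.75 (1.67 to 1.84), 1.71 (1.63 to 1.79), 1.65 (1.58 to 1.73) and 1.69 (1.59 to 1.79). Ndufa1, a small accessory subunit, had ratios of 1.57, 1.65, 1.58 and 1.59, and Ndufs4, an accessory subunit of the peripheral arm, 1.34, 1.30, 1.30 and 1.29. The striatal area was the area with the highest CPM of Ndufs3 and Ndufs4. Cox7a1 was lower, with 4.69, 5.11, 5.43 and 6.17 CPM against 13.0, 9.82, 11.99 and 13.8, and so was Ndufb4, with ratios of 0.684, 0.613, 0.738 and 0.794. Under TMM and RLE scaling 9 and 7 members were higher. The area was put together from clusters that differ between sets: cluster 4 had 601 of its 638 spots in set 2, and cluster 18 all 335 in set 4.

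The choroid plexus area, 74 and 57 spots in sets 1 and 3, had 10 members higher and 12 lower, against 15% of genes higher and 47.2% lower. The members' median log2 ratio was -0.12 against -0.38 for all genes, and it turned to 0.04 under TMM and 0.22 under RLE scaling, where 22 members were higher. With resolution 0.4, no centring or a minimum of 2000 counts, the area grew from 161 spots to 470, 350 and 345 and 1 member was higher in each case. Without set 1, 20 members were lower. All 13 neuron genes were lower in the area, and their part was not tested. Ndufa1 had 715 and 639 CPM against 384 and 379 in other spots. Atp5g1 had 76.6 and 87.3 CPM, ratios of 2.75 (2.50 to 3.03) and 2.46 (2.20 to 2.75). Lower members included Ndufa10, at 0.566 and 0.543, Ndufb8, at 0.643 and 0.604, and Ndufb4, at 0.301 and 0.321 on 20 and 14 counts. Within complex I, members thus moved in opposite directions in the same spots, and each of those named kept its direction under both scalings.

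The members that varied most over areas were tissue forms known from heart and muscle. Of the 68 members, Cox6a2 had the widest range of the area medians, 70.9-fold, from 1.21 CPM in cluster 12, led by Lbhd2, Ctxn3 and Prkcd, to 86.0 CPM in the thalamic area. In the thalamic area, where 4 members were higher and 0 lower (12% of genes higher and 15.9% lower), it had 71.0 and 101 CPM in sets 1 and 4 against 16.3 and 23.4 in other spots, ratios of 4.36 (4.04 to 4.70) and 4.32 (4.01 to 4.65). In cluster 12 it had 8 and 12 counts in sets 2 and 3, ratios of 0.0732 and 0.0502. In the layer 4 cortical area, where it was also higher, it had 36.9, 40.9 and 57.3 CPM in sets 1 to 3 with ratios of 1.87, 2.63 and 3.0. It was lower in the hypothalamic area, at 2.54, 9.36, 5.74 and 8.67 CPM, ratios of 0.113, 0.545, 0.261 and 0.248. In set 2 that area was made of 180 spots of cluster 23 and 19 of cluster 2, while sets 1 and 4 held only cluster 2. No set held 30 spots of both the thalamic area and cluster 12, so the range is between sets as well as areas. Cox6a1 ranged 2.55-fold over the areas, and in the thalamic area had ratios of 0.988 and 1.15.

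Cox7a1 followed another order, ranging 10.4-fold from 4.67 CPM in the claustral area to 48.4 in the choroid plexus area. In choroid plexus it had 49.1 and 47.7 CPM against 10.4 and 9.92, ratios of 4.72 (4.16 to 5.34) and 4.81 (4.11 to 5.59). Its partner Cox7a2 had 195 and 165 CPM there, ratios of 0.867 and 0.943. In the thalamic area, Cox7a1 had 16.5 and 24.0 CPM, 1.45 and 2.11-fold. The next members by range were Ndufb4, at 5.0-fold, Atp5g1, at 4.80-fold between choroid plexus and white matter, Ndufb8, at 3.99-fold, Cox7b, at 2.75-fold, Ndufa11, at 2.66-fold, and Ndufa1, at 2.61-fold.

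Apart from cluster 21, the other areas had at most 4 members called, among them Cox6a2, Cox7a1 and Ndufb4 in several areas. Cox7a1 was the sole member called, and was lower, in the claustral area (3.63% of genes higher, 9.7% lower), cluster 1 (6.75%, 15.3%), cluster 13 (7.2%, 10.8%) and cluster 20 (5.49%, 14.1%). In clusters 9 (2.62%, 3.99%) and 26 (11.1%, 13.2%) 0 were called either way. Cox6a2 was the sole call in the layer 6b cortical area (6.25%, 11%), with ratios of 0.408, 0.395, 0.493 and 0.194. Still, 56 of 68 members lay below 1 in every set there and 0 above, with a median log2 ratio of -0.18 against -0.08 for all genes (-0.12 under TMM and -0.10 under RLE).

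In the layer 4 cortical area (8.5% of genes higher, 16.2% lower) Ndufb4 was higher beside Cox6a2, and Ndufb10 was lower, at 0.771, 0.773 and 0.771. Cluster 3, led by Fezf2, Adra1d and Dkkl1 (5.87%, 11.8%), had Cox6a2, Ndufb3 and Ndufb4 higher and 0 lower. In cluster 12 (11.5%, 11.8%) Ndufa13 and Ndufv3 were higher and Cox6a2 lower. Ndufb4 was also higher in cluster 11 (10.4%, 25.3%) and cluster 22 (13.2%, 25.2%), each measured in 1 set, beside Atp5g1 in the former and Ndufb3 in the latter. Cluster 21, also measured in 1 set and led by Cux2, had 16 members lower (13.1%, 26.4%), of which TMM scaling left 1.

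In the extended amygdala (10.1% of genes higher, 12.5% lower) all 4 members called were lower and belonged to complex IV: Cox8a, at 0.689 to 0.733, Cox6a1, Cox6a2 and Cox6c. The median over complex IV members of their median log2 ratio was -0.35 there, against -0.45 in the ventricle lining. Taken set by set, the complex IV median ran from -0.34 to -0.16 in the extended amygdala. In the ventricle lining it ran from -0.60 to -0.42, without overlap. In the hypothalamic area (13.5%, 12.9%) Cox8a, Cox6a2 and Ndufb3 were lower, and Sdha was higher at 1.34, 1.43, 1.38 and 1.36-fold. In the meningeal area (9.71%, 8.82%) Atp5g1 was the sole call, at 0.677, 0.775, 0.624 and 0.793, and Cox8a had ratios of 1.38, 1.15, 1.31 and 1.18. There 46 of 68 members lay below 1 in every set, with a median log2 ratio of -0.22 against -0.08 for all genes (-0.39 under TMM and -0.17 under RLE). Without set 3, 7 members were lower, without set 1, 6, and without set 4, 3. Under TMM 26 were lower and under RLE 0.

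Members under 10 CPM had clear peaks too, on few counts. Cox8b, the heart and muscle form of Cox8, had 117 and 38.8 CPM in the choroid plexus area of sets 1 and 3, on 710 and 153 counts, against 1.75 and 1.35 CPM in other spots. Both values lay above every other area and set, where the highest was 12.1 CPM. Its partner Cox8a had 737 and 734 CPM there. Cox6b2, known from testis, had 16.5 and 13.7 CPM in choroid plexus, and 7.99, 4.84, 9.76 and 12.6 in white matter against 1.96, 2.19, 2.02 and 3.65 in other spots. Ndufa4l2, which is induced by hypoxia in other tissues, was highest in the meningeal area, at 14.7, 34.8, 17.8 and 30.6 CPM against 7.20, 9.75, 6.63 and 12.8. Cox4i2, a lung and hypoxia form, was also highest there, at 4.46, 18.4, 12.2 and 12.5 CPM, and on only 10 counts in set 1. Cox7b2 was highest in the thalamic area, at 8.54 and 5.74 CPM. Cox8c stayed under 1 CPM in each whole section, at 0.114 to 0.617. Counts of close paralogues are open to sharing of probes, and the probe set is not given in the sources used here.

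**Figure D3:**
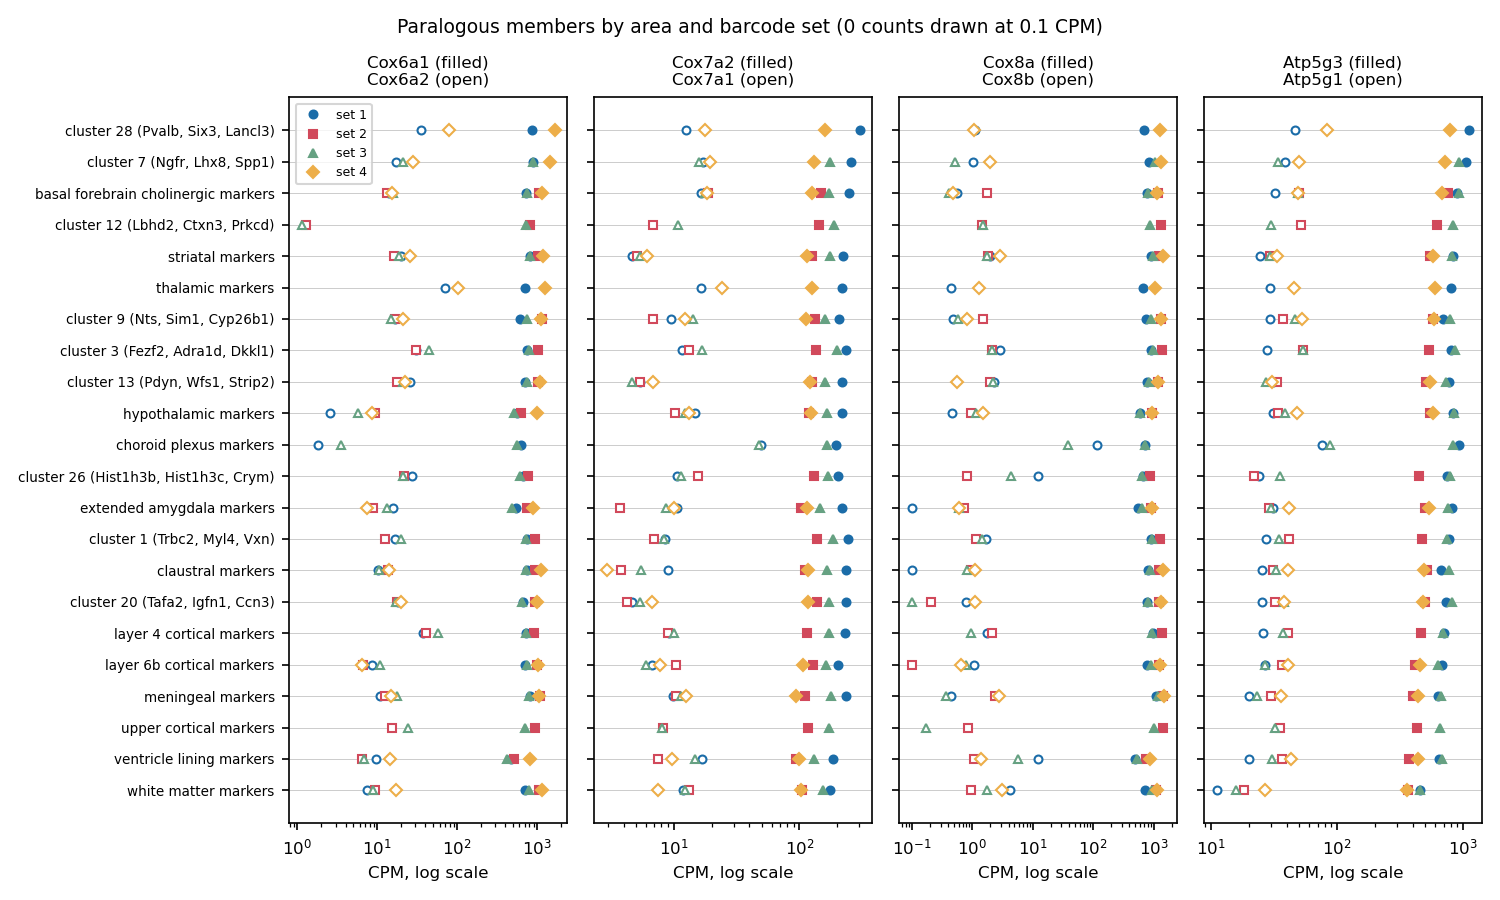
CPM on a log scale (horizontal axes) of 4 pairs of paralogous members by area (vertical axis) and barcode set (colour), with the widely expressed member filled and its partner open. Cox6a2 reaches 71.0 and 101 CPM in the thalamic area, Cox7a1 49.1 and 47.7 and Cox8b 117 and 38.8 in the choroid plexus area, while Cox6a1, Cox7a2 and Cox8a vary less; 0 counts are drawn at 0.1 CPM.

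The genes most like these paralogues over the 76 pairs of area and set were found by the correlation of log2(CPM + 1), without removing set means. The pairs share libraries and depth, and the values are descriptions. For Ndufa4l2 they were Flt1 (r = 0.86), Epas1, Rgs5, Slco2b1 and Cldn5 (0.81), of which Flt1 and Cldn5 are known from endothelial cells and Rgs5 from pericytes. For Cox4i2 they were Ctdsp2 (0.77), Cyp2d22, Acer2, Rgs5 and Pdgfrb (0.75). For Cox6a2 they included Inpp5j (0.66), Ndrg4, Slc2a13 and Kcnq3 (0.63). For Cox7a1 they were Rom1 (0.76), Slc39a13, Fuca1, Tnfaip8 and Ccdc141 (0.72). With each set's mean removed the lists changed. Of the genes named, Flt1, Epas1 and Rgs5 stayed for Ndufa4l2 and only Pdgfrb for Cox4i2. Inpp5j, Ndrg4 and Kcnq3 stayed for Cox6a2, and Rom1, Fuca1 and Ccdc141 for Cox7a1. Among the 68 members themselves, with each set's mean removed, the median correlation was 0.54 within a complex and 0.51 between complexes, against 0.03 between a member and all genes. Ndufb4 had the lowest median correlation with the other members, at -0.13. The total share of the members correlated on the same scale at 0.90 with the TCA cycle list (0.70 without removing the set means), 0.69 with the assembly factors and 0.59 with glycolysis. The rank correlations with these lists were 0.836, 0.838 and 0.564. The lead of the TCA cycle list over the assembly factors thus depended on the measure. Of the cell type lists, the parvalbumin list correlated at 0.68, neuron at 0.27 and oligodendrocyte at 0.21. By rank correlation the values of these cell type lists were 0.62, 0.13 and 0.39, so the order of neuron and oligodendrocyte depended on the measure.

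Between sets, single members differed far more than their total did. Over whole sections sets 1 and 2 lay apart, by the same fold, in 42 of 68 members (51.9% of genes). The count was 43 between sets 1 and 4 (54.1%), 31 between sets 2 and 3 (46.0%) and 36 between sets 3 and 4 (51.4%). Between sets 1 and 3 it was 7 members (17.7% of genes) and between sets 2 and 4 also 7 (14.9%). Sets 1 and 3 were thus closer to each other than to sets 2 and 4, for the members as for all genes. The members went both ways: 19 were higher in set 1 and 23 in set 2, and 19 were higher in set 1 and 24 in set 4. What the pairs of sets have in common is not given in the labels, and the sets also differ in depth, which was lowest in sets 2 and 4.

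The widest member over the sets was Cox6c, a small subunit of complex IV, with 520, 201, 540 and 272 CPM in sets 1 to 4, a 2.68-fold range. Ndufa6 of complex I, at 147, 66.02, 136 and 83.7 CPM, and Atp5j, coupling factor 6 of complex V, at 535, 241, 469 and 274, were likewise higher in sets 1 and 3. The opposite order held for Ndufc2, at 184, 325, 197 and 461 CPM, Ndufb8, at 176, 390, 205 and 416, and Atp5f1, the b subunit of the stalk of complex V, at 83.0, 173, 99.5 and 200.5. Ndufa11, at 57.0, 81.7, 49.8 and 101, and Ndufb2, at 7.78, 10.8, 7.75 and 16.8, were also higher in sets 2 and 4. In each case the higher pair of sets did not overlap the lower pair. In the 12 areas held by all 4 sets, these 8 members kept the same pair of highest sets in all 12 areas, except Ndufb2, which did so in 10. The areas are parts of the same libraries from which these 8 were picked for their range, so this is not independent support. No rate was taken for other members or genes. The smallest ranges over sets were those of Sdha, at 343, 350, 330.5 and 344 CPM (1.06-fold), and Ndufa5 (1.07-fold).

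**Figure D4:**
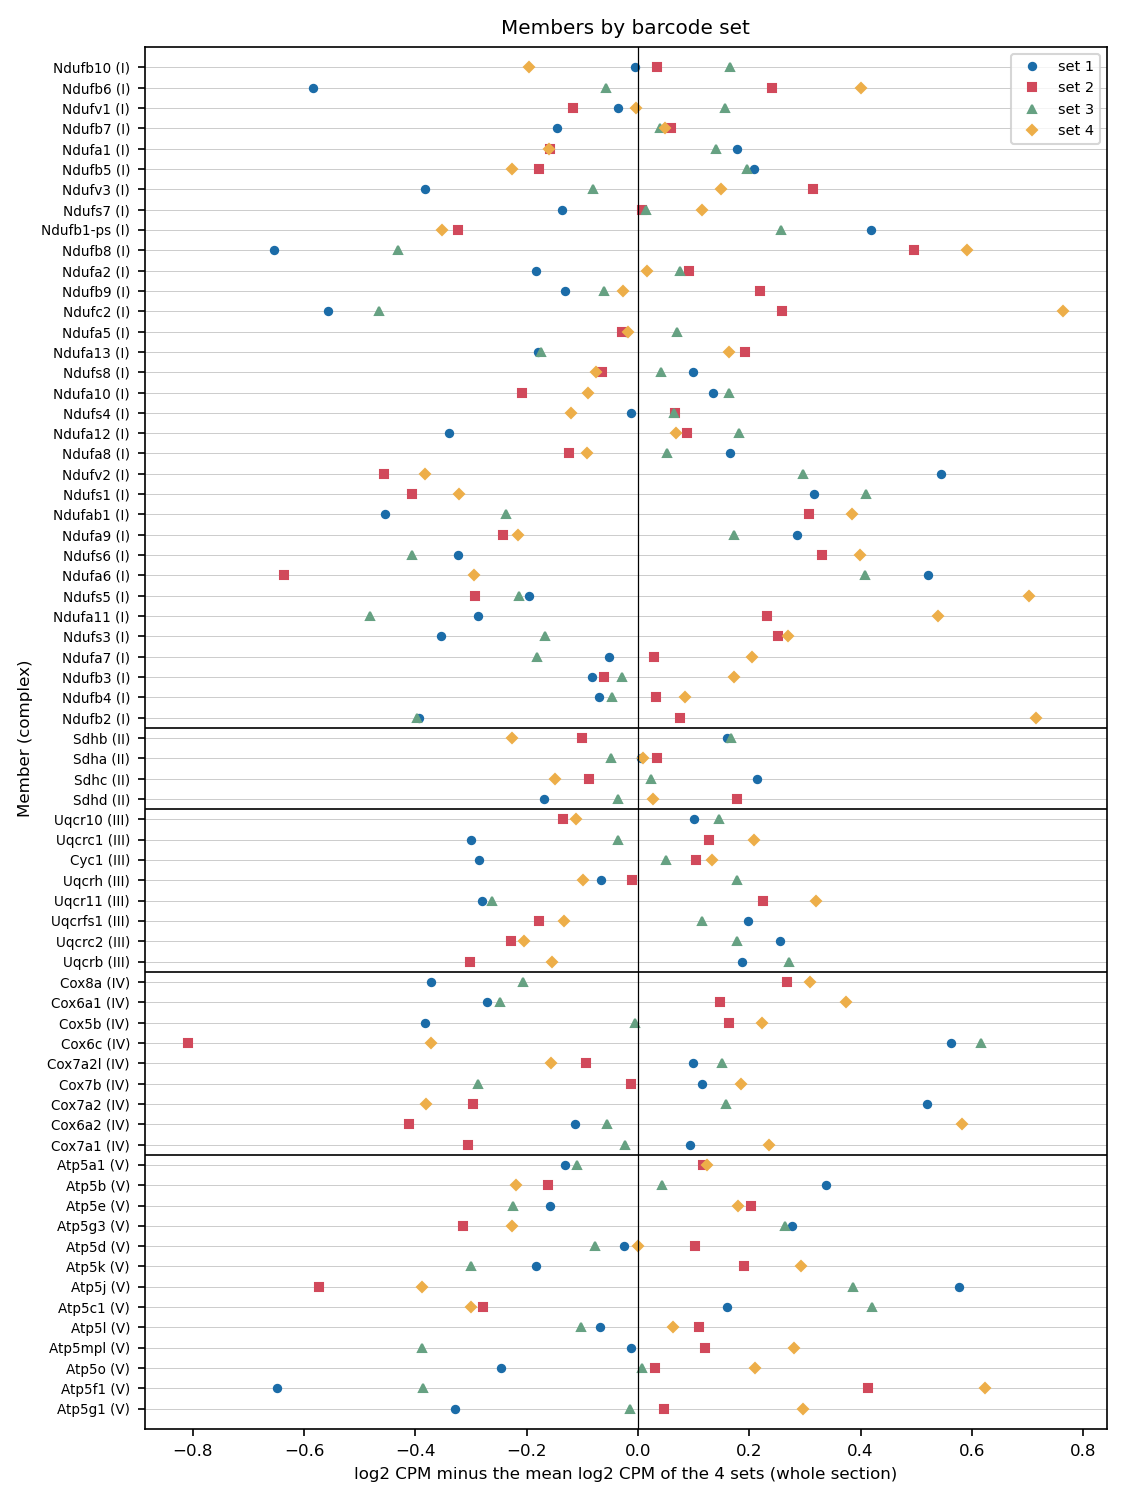
Log2 CPM of 67 of the members in the whole section of each set minus its mean over the 4 sets (horizontal axis), by complex (vertical axis). Sets 1 and 3 lie together on 1 side and sets 2 and 4 on the other for the members that differ most, such as Cox6c, Ndufc2, Atp5f1 and Ndufb8, and members of the same complex lie on both sides.

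Because members moved together over areas, the bases before their starts were read. The 250 bases upstream of the start were held for 60 of the 75 members (RefSeq, build GRCm38.p6), 2 of them matched through an older name. The members without an entry included Ndufs1, Ndufa2, Ndufa4l2, Ndufb9, Sdhc, Cyc1, Uqcrb, Uqcrc2, Cox4i2, Cox6a2, Cox6c, Cox8c, Atp5a1 and Atp5mpl. Motifs were counted on either strand as exact letters, apart from 1 free base in the first motif. They were chosen after the shares of 8 candidate strings had been seen. The palindromic site of nuclear respiratory factor 1 (NRF1), the first capitals in the Cox6a1 line, was in 11 members (18.3%), against 4.23% of all 27025 promoters and 9.75% of the 8042 promoters of genes with at least 10 CPM. CCGGAAG, read by GABP and other ETS factors, was in 10 (16.7%), against 7.83% and 15.2%. The site of YY1, in capitals in the Atp5j line, was in 1 (1.67%), against 0.359% and 0.821%. AAGGTCA, the site read by oestrogen-related receptors, was in 5 (8.33%), against 4.70% and 3.32%. GGGCGG, the GC box, was in 38.3% of the members, against 35.4% and 67.1%, and CCAAT in 41.7%, against 37.5% and 40.3%. No test was made, and a match of letters is not a site in use. The promoters shown give at least 1 example of each of the first 4 motifs, which are in capitals, and are written 5′ to 3′ on the strand of the gene, which is the minus strand for each. Cox6a1 lies at chr5:115348959-115349208, Atp5e at chr2:174464102-174464351, Atp5j at chr16:84834977-84835226 and Atp5g3 at chr2:73911327-73911576.
Cox6a1: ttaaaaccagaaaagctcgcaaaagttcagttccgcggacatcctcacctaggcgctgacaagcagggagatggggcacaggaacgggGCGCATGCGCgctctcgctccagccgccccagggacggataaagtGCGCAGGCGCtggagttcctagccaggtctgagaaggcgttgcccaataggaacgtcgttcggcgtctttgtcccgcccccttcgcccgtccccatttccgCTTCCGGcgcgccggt
Atp5e: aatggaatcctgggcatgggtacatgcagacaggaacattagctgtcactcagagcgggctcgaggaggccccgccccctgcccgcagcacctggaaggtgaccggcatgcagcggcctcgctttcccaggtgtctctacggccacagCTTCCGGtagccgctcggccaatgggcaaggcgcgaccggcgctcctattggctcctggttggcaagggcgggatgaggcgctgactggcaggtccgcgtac
Atp5j: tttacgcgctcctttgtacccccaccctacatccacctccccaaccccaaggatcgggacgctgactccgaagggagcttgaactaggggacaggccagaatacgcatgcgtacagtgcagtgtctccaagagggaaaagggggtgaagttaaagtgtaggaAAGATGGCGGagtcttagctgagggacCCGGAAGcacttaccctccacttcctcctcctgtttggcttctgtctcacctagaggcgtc
Atp5g3: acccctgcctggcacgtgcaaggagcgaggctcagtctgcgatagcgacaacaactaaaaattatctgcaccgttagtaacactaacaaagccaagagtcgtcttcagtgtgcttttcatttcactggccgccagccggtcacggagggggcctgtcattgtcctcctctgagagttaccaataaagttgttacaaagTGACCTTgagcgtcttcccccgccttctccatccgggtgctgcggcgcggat
Cox6a1, with NRF1 and ETS letters, had ratios of 1.22 and 1.5 in cluster 28. Atp5g3, with the AAGGTCA letters in the reverse direction, had 1.44 and 1.43 there, and Atp5j, with ETS and YY1 letters, 1.33 and 1.39.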

How the data were processed

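The counts per gene and spot were deposited by the authors as 1 table of whole numbers, and the submitters' processing notes name Space Ranger and Seurat without versions. Not given in the sources used here are the probe set, the build and whether spots were filtered. The 4 suffixes of the spot names match no label, so the planned comparison of genotypes, with edgeR's quasi-likelihood test, was not run. The members and gene lists were chosen with earlier results of these data known.

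Spots under 500 counts were left out (1 spot). Counts were scaled to 10000 per spot, logged and centred per gene and set. Leiden clustering at resolution 0.8 used 2000 variable genes, without members, listed genes, Celsr genes and sex-linked genes, 30 components and 15 neighbours (scanpy 1.11.5, leidenalg 0.10.2). A cluster took an area's name with at least 3 of its markers among the 10 leading genes, and, by a rule set after seeing the data, with 50% of the markers at least 1.5-fold higher. That second rule left clusters 9, 12 and 13 without a name. Doublet callers do not apply to spots.

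CPM is the gene's sum per 1000000 counts of an area and set, with exact Poisson intervals, and ratios have exact conditional binomial intervals (scipy 1.17.1). Members named are the highest of each complex, the 3 highest and 3 lowest of an area, the 8 widest over areas and over sets, and the paralogues; others named beside them were chosen after their values were seen. The alternatives were other clusterings, 2000 counts per spot, TMM and RLE scaling (edgeR 4.0.16), no gene filter, a 1.5-fold rule, spots thinned to 5000 counts and each set left out. The fold rule was tested on simulated counts. The first pass mark was missed for genes set lower. It was replaced, after that was seen, by a mark only for genes whose counts resolve the fold, which was met. Values of some single genes are not reported here.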

Additional observations from a re-analysis of the deposited data

How the results depend on the processing

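No paired analysis was possible because the barcode sets carry no replicate numbers and were tied to no mouse; for the same reason the genotype fits were not run. The results followed here are the whole-section shares and the complex levels of the white matter, striatal and cholinergic areas. Also followed are the counts of members apart between sets, and the counts of areas with at least 3 members called. The last is a rule set after the counts were seen. Of 269 recomputed values, 192 stayed within 1.5 times (counts of members), the counting interval (shares) or the range over the sets (complex levels). No called direction was tested, and a numbered cluster without a match in another clustering has no value there.

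A fold of 1.5 left 6 members higher in cluster 28, 0 in cluster 7, 0 in the cholinergic area, 3 in choroid plexus, 1 in cluster 3 and 1 in the thalamic area. It left as lower 4 in white matter, 1 in ventricle lining, 0 in upper cortical, 6 in choroid plexus, 1 in cluster 21, 0 in extended amygdala and 1 in hypothalamic. The set pairs in order (1 and 2, 1 and 3, 1 and 4, 2 and 3, 2 and 4, 3 and 4) then had 17, 0, 24, 11, 3 and 19 members apart.

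TMM scaling gave 4 members higher in cluster 7 and 9 in striatal, and as lower 39 in ventricle lining, 0 in upper cortical, 7 in extended amygdala and 1 in cluster 21. Whole-section shares were 2.198, 2.0155, 2.2273 and 1.9703%. Striatal complex levels in CPM rose from 8302 to 9384 (I), 1070 to 1229 (II), 2609 to 2910 (III), 6107 to 6901 (V) and 22088 to 25139 (all). RLE gave 22 higher in choroid plexus, 7 in striatal and 5 in cluster 3, and as lower 4 in choroid plexus, 12 in ventricle lining, 12 in white matter, 1 in upper cortical and 3 in cluster 21.

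A minimum of 2000 counts gave 3 higher in cluster 7, 6 in the cholinergic area, 1 in choroid plexus and 5 in cluster 3, with 7 lower in choroid plexus. Resolution 0.4 gave 1 higher and 3 lower in choroid plexus. Resolution 1.2 gave 8 lower in white matter, with complex levels of 6793 (I), 1007 (II), 2264 (III), 4760 (V) and 18194 CPM (all), from 6346, 908, 2093, 4382 and 17253. Without centring 1 was higher in choroid plexus and 3 lower in upper cortical. Without the gene filter 10 were lower in upper cortical. Thinning to 5000 counts gave 7 higher in cluster 7 and 1 in the cholinergic area, and 16 lower in white matter and 1 in extended amygdala. Shares became 2.016, 2.0826, 2.0959 and 2.1458%, and complex V in the cholinergic area 6272 CPM. At the usual fold, in the striatal area alone, sets 1 and 3 had 11 members apart. Causes were not tested.

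Leaving out each set in turn gave, as higher, 42 to 48 in cluster 28, 11 to 23 in cluster 7 (23 without set 3), 3 to 8 in the cholinergic area (8 without set 4), 10 to 14 in choroid plexus, 3 to 5 in striatal (5 without set 2) and in cluster 3 (5 without set 1), and 4 to 5 in thalamic. As lower it gave 25 to 32 in white matter, 6 to 10 in ventricle lining (10 without set 3 or 4), 9 to 13 in upper cortical (13 without set 3), 12 to 20 in choroid plexus (20 without set 1), 3 to 5 in hypothalamic (5 without set 4) and 4 to 6 in extended amygdala. A call needs the fold in every set, so leaving out a set can only keep or raise these counts.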
